A study of Mus musculus with 4 samples.

Results

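Toll-like receptors and the proteins that load or couple them were followed by cell class and day in the mouse carotid artery before and after wire injury. The genes were the receptors Tlr1, Tlr2, Tlr4, Tlr7, Tlr8, Tlr9 and Tlr13, the co-receptors Cd14 and Ly96, and the adaptor Myd88. They were taken by name and not by a cut on a measured value, although earlier results of these data were known. They are 10 of the 31053 genes in the count tables. Each of the 10 had transcripts on days 3, 7 and 14, whereas 8 of them had any on day 0, when Tlr8 and Tlr9 were at 0.

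Cells were isolated from the carotid arteries of male C57BL/6 mice aged 11 weeks and run on the droplet platform 10x Chromium, which reads the 3′ ends of transcripts and tags each molecule with a unique molecular identifier (UMI). There were 4 groups with 1 library each, namely arteries taken before injury (day 0) and arteries taken 3, 7 and 14 days after a wire was passed through the vessel, which strips the endothelium. No transgene, deletion or drug is named for any group. Each injured group pooled at least 5 arteries, vessels with a thrombus were discarded, and dead cells were removed magnetically, so a library is a mixture of animals and there is no replicate of any day. No comparison between days could therefore be tested, and every interval given is an exact 95% interval that covers counting error only.

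Toll-like receptors are membrane receptors of innate immunity that recognise microbial molecules and, in some settings, products of damaged tissue. Tlr1, Tlr2 and Tlr4 act at the cell surface, Tlr2 paired with Tlr1 or Tlr6 on bacterial lipoproteins and Tlr4 with MD-2 (the product of Ly96) on lipopolysaccharide, which CD14 hands over. Tlr7, Tlr8, Tlr9 and Tlr13 act in endosomes on nucleic acids, and Tlr13 of the mouse binds bacterial ribosomal RNA. All of them signal through the adaptor MyD88 to NF-κB, and they are best known from macrophages, neutrophils and dendritic cells.

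Promoter sequences are shown for 3 receptors whose cell distributions differed: Tlr13, whose transcripts were almost absent from stromal cells; Tlr8, whose transcripts came mostly from monocyte/macrophage-like cells; and Tlr2, which had UMIs in myeloid and stromal classes alike. The sequences are those of RefSeq on build GRCm38.p6, 250 bases that end directly before the start of transcription, written 5′ to 3′ on the strand of the gene. Capitals mark GAGGAA or its reverse complement TTCCTC, the core letters bound by PU.1, the ETS factor of myeloid cells.
Tlr13, chrX:106143025-106143274, plus strand: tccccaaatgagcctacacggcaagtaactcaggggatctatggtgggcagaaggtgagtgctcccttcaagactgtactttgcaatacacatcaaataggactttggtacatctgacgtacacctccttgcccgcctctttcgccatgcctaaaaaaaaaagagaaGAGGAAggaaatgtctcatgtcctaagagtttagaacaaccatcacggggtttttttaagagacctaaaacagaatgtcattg
Tlr8, chrX:167264330-167264579, minus strand: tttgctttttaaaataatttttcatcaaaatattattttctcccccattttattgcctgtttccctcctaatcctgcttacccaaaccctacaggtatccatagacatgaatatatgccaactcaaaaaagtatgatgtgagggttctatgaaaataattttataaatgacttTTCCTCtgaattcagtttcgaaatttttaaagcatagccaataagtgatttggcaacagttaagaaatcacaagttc
Tlr2, chr3:83841609-83841858, minus strand: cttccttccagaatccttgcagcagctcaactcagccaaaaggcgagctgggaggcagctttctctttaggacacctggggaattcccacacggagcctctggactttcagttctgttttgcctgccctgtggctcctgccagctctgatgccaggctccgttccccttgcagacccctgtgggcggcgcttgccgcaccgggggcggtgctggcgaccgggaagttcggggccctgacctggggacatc
The letters began 83 bases before the start of Tlr13 and 77 bases before that of Tlr8, and were not in the window of Tlr2. Of the 6 members with a promoter in the table, 4 held a match, since Tlr9 (112 bases before the start) and the start of Tlr1 at the higher coordinate (23 bases before it) also held the letters and Myd88 did not. Among 32851 promoters of the same length, 23.3% held the letters on either strand, and of 27025 genes 25.9% held them in at least 1 promoter. A match of this kind is a description of the window and not a binding site. Tlr4, Tlr7, Cd14 and Ly96 were not in the table.

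After filtering, 5403 of 6161 barcodes were kept, with 281, 1403, 2690 and 1029 cells on days 0, 3, 7 and 14 and a median of 7959, 5458, 6350.5 and 10750 UMIs per cell. Levels are given as CPM, that is, the UMIs of a gene summed over the cells of a class in a library, per 1000000 UMIs of those cells. Cells were grouped by clustering without the members and named from marker genes, which gave 10 classes and left 781 cells (14.5%) unnamed. The day 0 library held 237 fibroblast-like cells and only 7 smooth muscle-like, 6 endothelial-like and 2 monocyte/macrophage-like cells, so the defining cells of the vessel wall were thinly covered and levels before injury could be followed in fibroblast-like cells alone. In all, 217 barcodes occurred in more than 1 library, 152 of them on days 0 and 3 and 64 on days 7 and 14. The shallower copy held a median of 4.39% of the UMIs of the deeper copy for days 0 and 3, and of 1.12% for days 7 and 14. The shallower copies were removed, which took 48 barcodes from day 0, 104 from day 3, 3 from day 7 and 62 from day 14, and the counts of called members with them kept are given among the processing alternatives.

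The members were mostly genes of monocyte/macrophage-like and neutrophil-like cells, and they differed in how far they reached beyond them. Cd14 and Tlr13 were highest in neutrophil-like cells, as was Tlr4 on day 3. Tlr2 was high in both classes, Tlr7 and Tlr8 were nearly restricted to monocyte/macrophage-like cells, apart from a few plasmacytoid cells with Tlr7, and Myd88 was spread over nearly every class. Over the kept cells the number of UMIs per member ran from 68 for Tlr9 to 17037 for Cd14, so that the precision differs widely between genes. The high Cd14 value of endothelial-like cells on day 14, 380 CPM, came from 19 UMIs that were all in 1 of 21 cells.

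**Figure D1:**
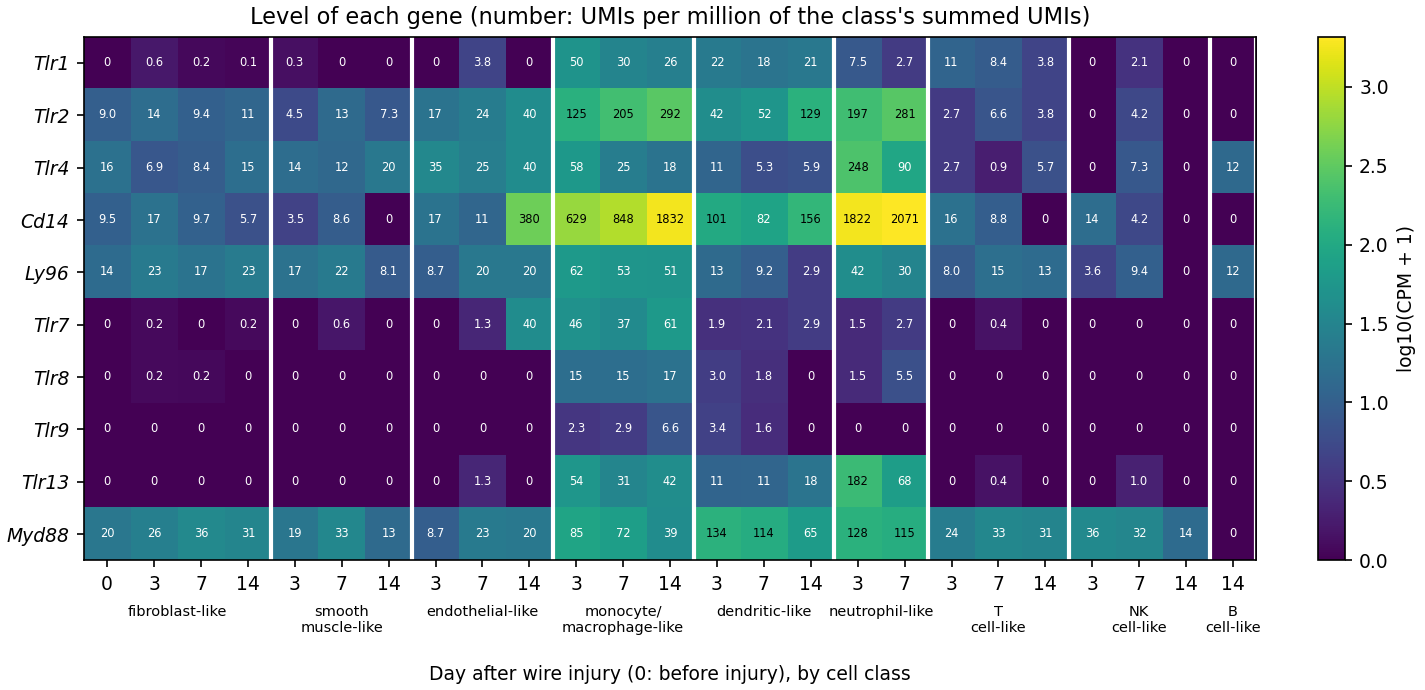
Level of each of the 10 genes in each cell class on each day, printed in each cell as CPM of summed UMIs and coloured by log10(CPM + 1), with class-days under 20 cells left out. Cd14 and Tlr2 are high across the monocyte/macrophage-like and neutrophil-like columns, whereas Myd88 is above 0 in every column but that of B cell-like cells.

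Tlr2, the receptor for lipoproteins, stood at 125 CPM (115 to 135), 205 CPM (196 to 215) and 292 CPM (264 to 322) in monocyte/macrophage-like cells on days 3, 7 and 14. In neutrophil-like cells it stood at 197 CPM (165 to 234) on day 3 and 281 CPM (230 to 341) on day 7. The intervals of the 3 macrophage-like values did not overlap, and the later day was the higher in both classes. Dendritic-like cells held 41.8, 52.1 and 129 CPM on days 3, 7 and 14, with the last value resting on 44 UMIs in 42 cells. The endothelial-like cluster led by Pecam1 held 23.8 CPM (15.4 to 35.2) on 25 UMIs. In fibroblast-like cells Tlr2 was at 9.0, 14.2, 9.36 and 11.3 CPM on days 0, 3, 7 and 14, and over all days at 11.2 CPM (9.86 to 12.8). T cell-like cells, a class expected to hold little Tlr2, had 5.43 CPM (3.22 to 8.59). That T cell-like value was used as a rough gauge of free RNA in droplets, and the fibroblast-like level over all days was above it. Whether T cell-like UMIs of the members came from free RNA was not tested, so a level near the gauge is not thereby background. At 1000 UMIs per cell the shares of cells with a Tlr2 UMI, 1.40% (0.769 to 2.34) and 1.12% (0.413 to 2.42), had overlapping intervals. These shares rest on 14 of 998 fibroblast-like and 6 of 535 T cell-like cells, too few to separate the classes. Whether the fibroblast-like Tlr2 UMIs came from free RNA was not tested.

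Tlr1, a partner of Tlr2, was highest in monocyte/macrophage-like cells, at 49.9 CPM (43.8 to 56.7), 29.9 CPM (26.4 to 33.8) and 26.3 CPM (18.4 to 36.4) on days 3, 7 and 14. Dendritic-like cells followed at 21.7, 17.7 and 20.5 CPM, with intervals that overlapped between the days. Neutrophil-like cells held only 5 UMIs on day 3 and 1 on day 7. T cell-like cells held 7.85 CPM (5.13 to 11.5) over all days, against 0.237 CPM (0.0770 to 0.554) in fibroblast-like cells.

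Tlr6, a close relative of Tlr1 that also pairs with Tlr2, was looked at after the values of Tlr1 had been seen. Of the UMIs of both genes together, Tlr1 made up 81.9% (78.7 to 84.8) in monocyte/macrophage-like cells and 8.33% (3.12 to 17.3) in neutrophil-like cells, where Tlr6 had 66 UMIs and Tlr1 6. Dendritic-like cells were at 88.1% (82.1 to 92.7). The partner of Tlr2 with the larger share of UMIs thus differed between classes by more than counting error. The 2 genes are near-identical over part of their coding sequence, and reads that fit both cannot be told apart by a gene count, so each share is uncertain to that extent.

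Tlr4, the lipopolysaccharide receptor, was highest in neutrophil-like cells on day 3, at 248 CPM (211 to 288), and was at 90.2 CPM (62.1 to 127) there on day 7. Monocyte/macrophage-like cells held 57.5 CPM (50.9 to 64.8), 24.5 CPM (21.4 to 28.0) and 17.5 CPM (11.2 to 26.1) on days 3, 7 and 14. The day 3 value was the highest in both classes, and its interval did not overlap those of the later days. With each cell thinned to 1000 UMIs, 24.3% (18.8 to 30.5) of neutrophil-like cells had a Tlr4 UMI on day 3, against 5.33% (3.48 to 7.77) of monocyte/macrophage-like cells. Before thinning the shares were 45.3% and 34.1%, at median depths of 2860.5 and 8387 UMIs. Outside the myeloid classes Tlr4 lay at 15.5 CPM (12.5 to 19.0) in smooth muscle-like cells and 11.6 CPM (10.2 to 13.1) in fibroblast-like cells over all days, whose intervals overlapped. The endothelial-like cluster led by Pecam1 was higher, at 28.6 CPM (19.3 to 40.8) on 30 UMIs in 121 cells. Of the endothelial-like Tlr4 UMIs, 7 of 8 on day 3 were in 1 cell, whereas the 20 of day 7 lay in 10 of 62 cells. T cell-like cells had 6 UMIs, or 1.81 CPM (0.665 to 3.94), so the stromal level of Tlr4 lay above the gauge by more than counting error. Dendritic-like cells were low, at 11.0 CPM on day 3 and 5.27 CPM on day 7, and the dendritic-like cluster led by Ccr7, the chemokine receptor of cells that migrate to lymph nodes, had no Tlr4 UMI.

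Cd14, which captures lipopolysaccharide for Tlr4, was the member with the most UMIs. In neutrophil-like cells it stood at 1822 CPM (1721 to 1927) on day 3 and 2071 CPM (1927 to 2224) on day 7. In monocyte/macrophage-like cells it stood at 629 CPM (607 to 652), 848 CPM (829 to 868) and 1832 CPM (1761 to 1905) on days 3, 7 and 14. The macrophage-like level of day 14 was thus that of neutrophil-like cells on day 3, with overlapping intervals. The share of monocyte/macrophage-like cells with a Cd14 UMI was 73.5%, 74.4% and 86.0% at median depths of 8387, 9911 and 9118 UMIs, and 34.8%, 39.7% and 57.9% after thinning to 1000 UMIs. In dendritic-like cells Cd14 was at 101, 82.1 and 156 CPM, but on day 14 just 4 of 42 cells held its 53 UMIs and 1 cell held 37 of them, and the level without that cell was 48.8 CPM. The fibroblast-like level of 9.63 CPM (8.35 to 11.1) was not separated from the T cell-like gauge of 7.85 CPM (5.13 to 11.5). At 1000 UMIs per cell, 1.30% of fibroblast-like and 1.5% of T cell-like cells had a Cd14 UMI, and unthinned 13.4% and 4.78% at median depths of 16553 and 5460.5 UMIs, so over all cells the fibroblast-like detection of Cd14 was not above that gauge. The gauge pools mostly T cell-like cells of day 7 and the fibroblast-like value mostly cells of day 14. The fibroblast-like cluster led by Saa3 and Prg4 stood apart, with Cd14 at 22.4 CPM (17.8 to 27.7) and a UMI in 53.8% of 65 cells at high depth. On day 0 fibroblast-like cells held 21 Cd14 UMIs, in a library with 2 monocyte/macrophage-like cells.

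Ly96 encodes MD-2, the part of the Tlr4 complex that binds lipopolysaccharide. It was at 61.8 CPM (54.9 to 69.3), 52.9 CPM (48.2 to 57.9) and 51.1 CPM (39.9 to 64.6) in monocyte/macrophage-like cells on days 3, 7 and 14, with overlapping intervals. Neutrophil-like cells held 41.8 and 30.1 CPM on days 3 and 7, whose intervals also overlapped. Its spread among classes was narrower than that of Cd14, since fibroblast-like cells had 20.4 CPM (18.5 to 22.4), smooth muscle-like cells 16.3 CPM (13.2 to 19.9) and T cell-like cells 13.9 CPM (10.2 to 18.5) over all days. Neither smooth muscle-like nor fibroblast-like cells were separated from T cell-like cells by their intervals, which for fibroblast-like cells met at 18.5 CPM. Ly96 differed within the T cell-like class, however. It was at 23.7 CPM (16.3 to 33.3) in the cluster led by Icos and Cd3g and 5.31 CPM (2.29 to 10.5) in that led by Ccl5 and Cd3d. The T cell-like class is therefore not an even gauge for Ly96.

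Tlr13 was highest in neutrophil-like cells, at 182 CPM (151 to 217) on day 3 and 68.3 CPM (44.2 to 101) on day 7. Monocyte/macrophage-like cells held 54.2 CPM (47.7 to 61.2), 31.1 CPM (27.5 to 35.0) and 41.6 CPM (31.5 to 53.9), lowest on day 7. In 1066 fibroblast-like cells no Tlr13 UMI was counted in 21074365, and in 544 T cell-like cells 1 was. Tlr13 thus had next to no background in the stromal and T cell-like classes, so its presence in myeloid classes does not rest on a small difference.

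Tlr7, a sensor of single-stranded RNA, lay at 45.9 CPM (40.0 to 52.4), 37.2 CPM (33.3 to 41.4) and 61.4 CPM (48.9 to 76.0) in monocyte/macrophage-like cells on days 3, 7 and 14. Neutrophil-like cells had 2 UMIs in all, and dendritic-like cells were at 2.05 CPM over all days. The few plasmacytoid dendritic-like cells, a cell type known for sensing nucleic acids, had 114 CPM from 14 UMIs in 7 of 11 cells. Tlr8, the neighbour of Tlr7 on chromosome X, lay at 15.0, 14.7 and 16.8 CPM in monocyte/macrophage-like cells, with overlapping intervals and 270 UMIs in the whole series. Tlr9, the receptor for unmethylated DNA, had 68 UMIs in all, of which monocyte/macrophage-like cells held 11, 26 and 9 on the 3 days, and its differences were mostly not resolvable at this depth.

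Myd88, the shared adaptor, was high in dendritic-like and neutrophil-like cells. Dendritic-like cells held 134 CPM (121 to 149), 114 CPM (104 to 124) and 64.6 CPM (40.5 to 97.8) on days 3, 7 and 14. Neutrophil-like cells were at 128 CPM (103 to 158) and 115 CPM (82.7 to 155) on days 3 and 7, with intervals that overlapped those of dendritic-like cells on both days, so the order of the pair is not resolved. Monocyte/macrophage-like cells came next, with 85.3 CPM (77.1 to 94.0), 72.1 CPM (66.6 to 77.9) and 39.4 CPM (29.6 to 51.5). Fibroblast-like cells at 29.8 CPM (27.6 to 32.3), T cell-like cells at 30.5 CPM (24.8 to 37.0) and NK cell-like cells at 31.0 CPM over all days could not be ordered. Smooth muscle-like cells pooled over the days were lower than fibroblast-like cells, at 21.7 CPM (18.1 to 25.8). Their days differed, with 17.8, 29.2 and 11.7 CPM on days 3, 7 and 14 when the cell with the most Myd88 UMIs was left out. The 44 B cell-like cells held no Myd88 UMI, which allows up to 21.8 CPM at the upper bound of the interval.

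Changes between days were next described within classes. A gene was compared where the 2 sums held at least 20 UMIs together, and was called higher or lower where the ratio of CPM was at least 2 or at most 0.5. In monocyte/macrophage-like cells all 10 members were compared. On day 14 against day 3, 3 members were called higher, where 5.95% of all compared genes were, and 2 lower, where 9.45% were. Cd14 rose with a ratio of 2.91 (2.76 to 3.07) and Tlr2 with a ratio of 2.34 (2.06 to 2.67), whereas Tlr9 passed the fold at 2.82 (1.03 to 7.50) on 9 against 11 UMIs. Tlr4 fell to a ratio of 0.305 (0.192 to 0.463) and Myd88 to 0.463 (0.342 to 0.616), and Tlr1 at 0.527 (0.360 to 0.750) stayed short of the fold. Tlr2 thus went opposite to Tlr4 and Myd88, and its partner Tlr1 did not go with it. The median log2 ratio over the members was -0.06 and over all compared genes -0.15.

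By day 7 a single member was called against day 3 in these cells, Tlr4 at 0.426 (0.355 to 0.511), where 4.23% of all compared genes were lower and 6.09% were higher. Tlr2 at 1.65 (1.5 to 1.81) and Cd14 at 1.35 (1.29 to 1.41) lay above 1 without passing the fold. Tlr13 at 0.574 (0.482 to 0.683), Tlr1 at 0.600 (0.501 to 0.718) and Tlr7 at 0.810 (0.680 to 0.966) lay below 1. So did Myd88 at 0.846 (0.745 to 0.960) and Ly96 at 0.856 (0.738 to 0.994). The median log2 ratio was -0.23 over the members and -0.12 over all compared genes.

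**Figure D2:**
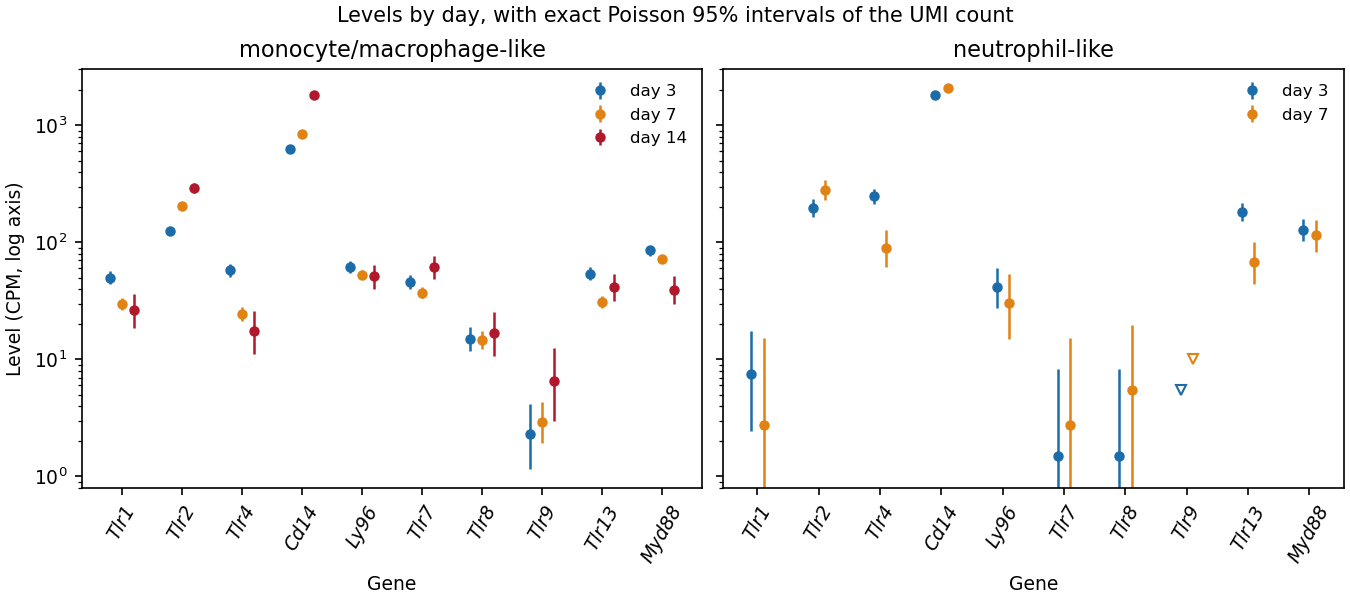
Level in CPM of each member in monocyte/macrophage-like cells on days 3, 7 and 14 and in neutrophil-like cells on days 3 and 7, on a logarithmic axis, with exact 95% counting intervals as bars and open triangles for the upper bound where no UMI was counted. In monocyte/macrophage-like cells Cd14 and Tlr2 are higher on each later day while Tlr4, at 57.5, 24.5 and 17.5 CPM, and Myd88, at 85.3, 72.1 and 39.4 CPM, are lower.

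Immediate-early and stress genes were higher on the days with higher Cd14 and Tlr2 in monocyte/macrophage-like cells, and the relation to Cd14 was less plain in other classes. A list of 11 such genes (Fos, Fosb, Jun, Junb, Jund, Egr1, Ier2, Atf3, Dusp1, Hspa1a and Hspa1b), which dissociation of tissue can induce and which was chosen after the members' values were seen, summed to 6424, 12960 and 20236 CPM in monocyte/macrophage-like cells on days 3, 7 and 14. All 11 were above their day 3 level on both later days. In dendritic-like cells the sum was 4328, 8854 and 13762 CPM, again with 11 of 11 above day 3, while the ratio of Cd14 to day 3 was 0.812 on day 7 (1.62 without doublet removal) and 1.54 (1.12 to 2.07) on day 14, when without the single cell named above the level was 48.8 CPM, below that of day 3. For fibroblast-like cells the list summed to 5934, 5416, 7934 and 11717 CPM on days 0, 3, 7 and 14, while the ratio of Cd14 on day 14 to day 0 was 0.605 (0.357 to 1.06). In neutrophil-like cells, where Cd14 was at 1.14 times its day 3 level, the sum was 26179 CPM on day 3 and 28631 CPM on day 7, with 5 of 11 above day 3. The part of these genes in the changes of Cd14 and Tlr2 was not tested.

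The make-up of the monocyte/macrophage-like class also differed between the days. A cluster led by Ccl6 held 60.6% of its cells on day 3, clusters led by Plac8 and Osm and by C1qa and Ms4a7 held 46.1% and 32.3% on day 7, and the C1qa and Ms4a7 cluster held 74.1% on day 14. Levels were therefore also taken inside that cluster, which had 46, 266 and 106 cells on days 3, 7 and 14. Cd14 stood at 527, 897 and 2022 CPM there and Tlr2 at 143, 223 and 303 CPM, with ratios of day 14 to day 3 of 3.84 (3.41 to 4.33) and 2.12 (1.67 to 2.71), as large as or close to those of the whole class. Myd88 at 80.7, 49.9 and 38.6 CPM kept its ratio too, at 0.479 (0.309 to 0.738). Tlr4 was different, at 29.6, 30.6 and 18.4 CPM with a ratio of 0.621 (0.312 to 1.24), an interval that spans 1.

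The higher Tlr4 of day 3 in the whole class went with the Ccl6 cluster, whose cells held 63.6 CPM over all days against 27.9 CPM in the C1qa and Ms4a7 cluster and 21.8 CPM in the Plac8 and Osm cluster. Within the Ccl6 cluster Tlr4 was at 71.9 CPM on day 3 and 30.2 CPM on day 7, so a lower value on the later day was measured there as well. In the cluster led by the interferon-induced genes Rsad2 and Ifit1, Myd88 reached 144 CPM and Tlr8 27.0 CPM over all days. Tlr4 was lower there on day 7 than on day 3, at 8.38 against 47.5 CPM, a ratio of 0.176 (0.0436 to 0.531) on 4 against 19 UMIs. In the Plac8 and Osm cluster the Tlr4 ratio was 0.665 (0.378 to 1.25). Cd14 was lower on day 7 in the Rsad2 and Ifit1 cluster as well, at 256 against 478 CPM. In the Plac8 and Osm cluster Cd14 stayed alike, with 969 and 986 CPM on days 3 and 7. The higher Cd14 of day 7 was therefore not shared by every cluster. For Tlr2 the ratio of day 7 to day 3 was 1.56 (1.25 to 1.97) in the C1qa and Ms4a7 cluster, 1.15 (0.935 to 1.43) in the Plac8 and Osm cluster, 0.907 (0.694 to 1.17) in the Ccl6 cluster and 0.637 (0.406 to 0.990) in the Rsad2 and Ifit1 cluster. The value of the whole class, 1.65, was thus above that of each of these clusters, and the make-up of the class moved with it. Myd88 on day 7 was at 1.84 times its day 3 level (1.25 to 2.75) in the Rsad2 and Ifit1 cluster and at 0.373 times (0.229 to 0.578) in the Ccl6 cluster.

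**Figure D3:**
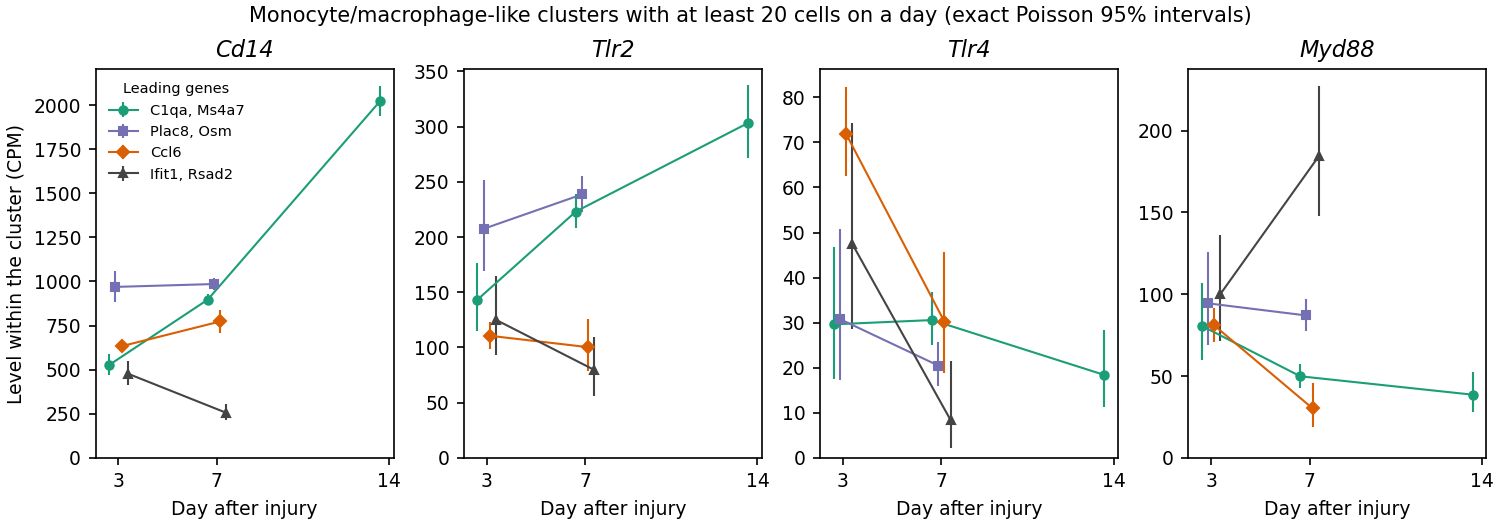
Level in CPM of Cd14, Tlr2, Tlr4 and Myd88 in 4 monocyte/macrophage-like clusters against the day after injury, with exact 95% counting intervals, a separate linear axis for each gene and each cluster named by its leading genes; days with under 20 cells of a cluster are left out. Inside the C1qa and Ms4a7 cluster Cd14 reads 527, 897 and 2022 CPM on days 3, 7 and 14.

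Some cells with monocyte and macrophage markers stayed outside the class. These 6 clusters, which remained unnamed because of low depth or because other genes led them, held 2, 40, 128 and 38 cells, or 0.712%, 2.85%, 4.76% and 3.69% of the cells of days 0, 3, 7 and 14. Their Cd14 level on days 3, 7 and 14 was 189, 320 and 1268 CPM, which was below that of the named class on each day and highest on day 14 as in that class.

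In neutrophil-like cells, 232 on day 3 and 118 on day 7, 6 members could be compared. Of these 2 were called lower, where 6.04% of all compared genes were, and none was called higher, where 6.81% were. Tlr4 had a ratio of 0.364 (0.243 to 0.531) and Tlr13 one of 0.375 (0.234 to 0.581). Tlr2 at 1.43 (1.09 to 1.86) and Cd14 at 1.14 (1.04 to 1.25) lay above 1, and Myd88 and Ly96 had intervals that span it. As whole classes, neutrophil-like and monocyte/macrophage-like cells both held less Tlr4 and more Tlr2 on day 7 than on day 3, although inside the macrophage-like clusters Tlr2 was above 1 beyond counting error only in the C1qa and Ms4a7 cluster, where Tlr4 was at 1.03 (0.624 to 1.80). The library of day 14 held no cell of this class.

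In dendritic-like cells 7 members were compared. On day 7 against day 3, only Tlr4 was called, at 0.478 (0.264 to 0.856) on 23 against 29 UMIs, where 3.39% of all compared genes were lower and 4.19% were higher. On day 14 against day 3, Tlr2 was called higher at 3.09 (2.13 to 4.42), where 8.06% of all compared genes were. Of its 44 UMIs on day 14, 12 were in 1 cell, and the level without that cell was 99.9 CPM, against 41.8 CPM on day 3. The immediate-early and stress list was also higher on day 14 in this class, and its part in the Tlr2 change was not tested. Myd88 at 0.481 (0.298 to 0.740) and Ly96 at 0.227 (0.00559 to 1.35) were called lower, where 11.3% of all compared genes were. The Ly96 value rests on 1 UMI on day 14, and its interval spans 1. In the dendritic-like cluster led by Cd209a, which had 121, 252 and 23 cells, Tlr2 was at 46.8, 58.7 and 180 CPM on days 3, 7 and 14, so the day 14 value was the highest inside a single cluster too. Of the 13 calls of members over all comparisons, 9 passed the fold under every alternative that gave a new ratio, and 3 of the other 4 were Tlr4, Myd88 and Ly96 of this class.

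Fibroblast-like cells were the 1 class that could be set against cells of the same name before injury. The paper places carotid fibroblasts mainly in the adventitia. It also describes a day 7 cluster, first annotated as fibroblasts, that it named SEM (stem cell, endothelial cell, monocyte) cells. The paper raises the possibility that these are modulated smooth muscle cells. No such class was named here, so the fibroblast-like class may include them. Only Tlr2, Tlr4, Cd14, Myd88 and Ly96 had enough UMIs to be compared. On day 3, 1 of the 5 was called lower, where 10.7% of all compared genes were, and 0 were called higher, where 10.4% were. Tlr4 stood at 16.2 CPM (11.3 to 22.4) on day 0 and 6.88 CPM (4.73 to 9.66) on day 3, a ratio of 0.424 (0.256 to 0.700). It was at 8.38 CPM (6.07 to 11.3) on day 7, just short of the fold at 0.517 (0.324 to 0.829), and at 14.8 CPM (12.4 to 17.5) on day 14, where its interval overlapped that of day 0. With each library clustered on its own the day 14 ratio was 0.497, and the day 7 ratio was 1.32 when CPM were averaged over single cells, so this course depends on the processing. The class also held different cells on each day. A cluster led by Rbp4 made up 86.5% of it on day 0, and clusters led by Eln and by C1qtnf3 made up 41.3% and 39.4% on day 14. Inside the C1qtnf3 cluster, with 26, 40 and 202 cells on days 0, 7 and 14, Tlr4 was at 39.6 CPM (23.1 to 63.4), 13.6 CPM (7.41 to 22.7) and 17.3 CPM (13.5 to 21.8), lower on both later days. Inside the Rbp4 cluster it was at 10.2 CPM (6.02 to 16.1) on day 0 and 7.68 CPM (2.49 to 17.9) on day 14, with overlapping intervals.

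Myd88 took another course in fibroblast-like cells, at 19.8 CPM (14.4 to 26.6), 25.6 CPM (21.3 to 30.6), 35.9 CPM (30.9 to 41.4) and 31.2 CPM (27.6 to 35.0) on days 0, 3, 7 and 14. Its ratio to day 0 was 1.81 (1.30 to 2.58) on day 7 and 1.57 (1.14 to 2.21) on day 14, above 1 by more than counting error and short of the fold. Ly96 was at 13.5, 22.5, 17.3 and 22.6 CPM, and its ratio was 1.67 (1.10 to 2.59) on day 3 and 1.68 (1.14 to 2.55) on day 14. With each library clustered on its own these Ly96 ratios were 0.830 and 0.904, below 1. With CPM averaged over single cells they were 3.24 and 1.89, and the day 7 ratio was 2.80, so Ly96 then passed the fold on days 3 and 7. The course of Ly96 therefore depends on the processing. With summed UMIs, no member was called on day 7, where 10.8% of all compared genes were higher and 8.13% lower, or on day 14, where 9.06% were higher and 4.67% lower. The median log2 ratio of the 5 members was 0.65, 0.06 and 0.33 on days 3, 7 and 14, against -0.08, -0.03 and -0.02 over all compared genes.

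The depth of the fibroblast-like cells moved with the day, at a median of 8067, 33731, 21584 and 18257 UMIs. On day 3 a sub-cluster of the non-immune cells, with 49 of the 121 fibroblast-like cells, held 69.8% of the UMIs of the class, while it held 27.5% on day 7 and 0.323% on day 14. It also held 23 smooth muscle-like cells on day 3 and 18 on day 7, with 52.5% and 62.0% of the UMIs of that class, so it crossed both class names. Without its fibroblast-like cells, Tlr4 in fibroblast-like cells on day 3 was at 8.27 CPM, a ratio of 0.511 to day 0 that no longer passed the fold. Ly96 was then at 29.6 CPM and passed it, and Cd14 was at 5.52 CPM and Myd88 at 13.1 CPM, both below day 0. The fibroblast-like values of day 3 therefore depend on that sub-cluster.

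**Figure D4:**
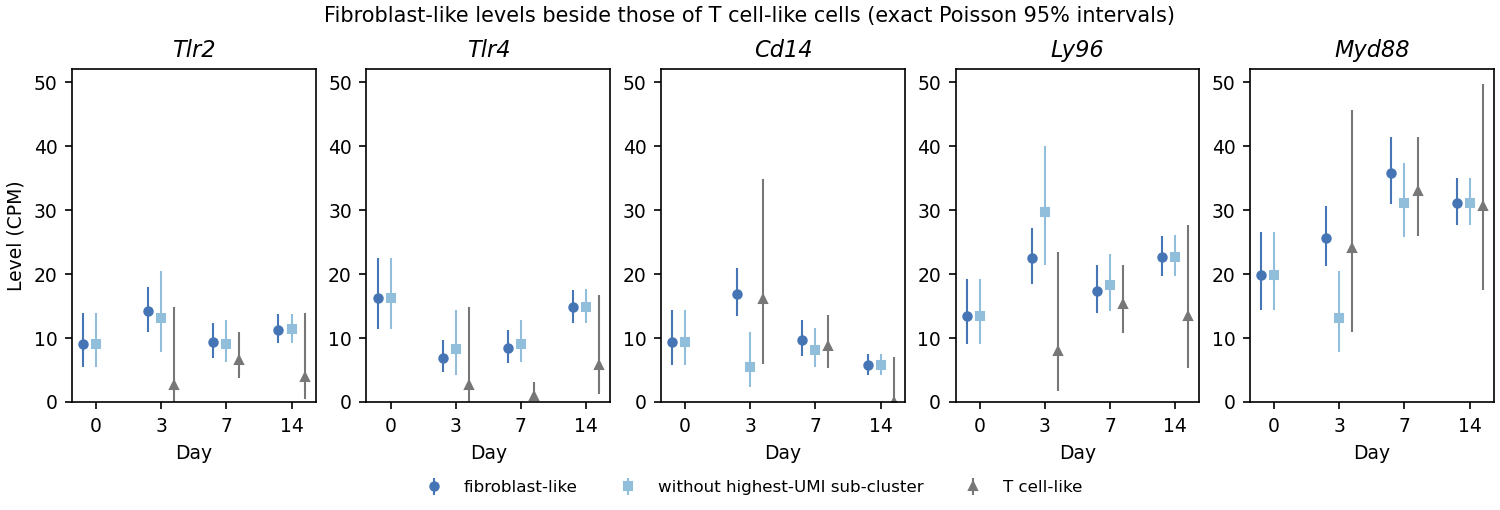
Level in CPM of Tlr2, Tlr4, Cd14, Myd88 and Ly96 in fibroblast-like cells on days 0, 3, 7 and 14 with exact 95% counting intervals, with all cells and without the sub-cluster of highest UMI counts, beside T cell-like cells on days 3, 7 and 14. Tlr4 is at 16.2, 6.88, 8.38 and 14.8 CPM with all cells, and at 8.27 CPM on day 3 without that sub-cluster.

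The cells that supplied the transcripts of each member changed with the make-up of the libraries. On day 0, fibroblast-like cells held 85.3% of all UMIs and 87.8% of the 41 Tlr4 UMIs, 90.9% of the 22 Tlr2 UMIs and 91.7% of the 48 Myd88 UMIs. The 2 monocyte/macrophage-like cells, with 0.646% of all UMIs, held 13 of the 34 Cd14 UMIs and 5 of the 37 Ly96 UMIs. Tlr1, Tlr7 and Tlr13 had at most 2 UMIs each on that day and none of them in fibroblast-like cells. On day 3, neutrophil-like cells held 3.70% of all UMIs but 25.5% (24.2 to 26.7) of Cd14, 28.1% (24.5 to 32.0) of Tlr4 and 28.2% (24.0 to 32.7) of Tlr13. On day 7, they still held 8.18% of Cd14 with 1.38% of all UMIs.

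On day 14, monocyte/macrophage-like cells held 10.5% of all UMIs and still 85.2% (83.9 to 86.5) of Cd14, 68.3% (64.3 to 72.0) of Tlr2, 83.8% (72.9 to 91.6) of Tlr13 and 95.8% of Tlr8. Fibroblast-like cells by then held 68.7% of all UMIs, with 67.3% (60.3 to 73.9) of Tlr4, 70.0% (65.3 to 74.5) of Myd88 and 68.0% (62.4 to 73.3) of Ly96. Most Cd14 UMIs of day 14 thus came from monocyte/macrophage-like cells, and most Tlr4 and Ly96 UMIs from fibroblast-like cells. These fibroblast-like shares were near the share of that class in all UMIs, so they say little about the genes themselves. As a level, Ly96 was at 51.1 CPM in monocyte/macrophage-like and 22.6 CPM in fibroblast-like cells on day 14. Tlr4 was at 17.5 and 14.8 CPM, with overlapping intervals. Shares of this kind depend on how many cells of each class were recovered by digestion.

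**Figure D5:**
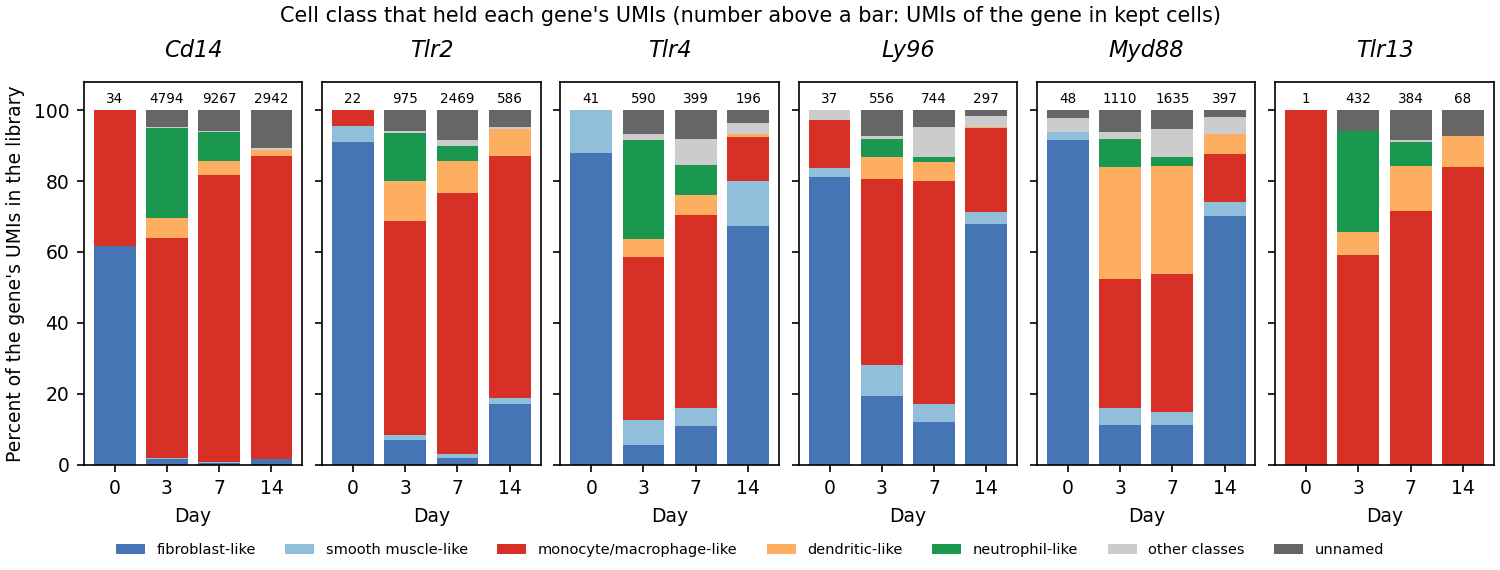
Share in percent of the UMIs of Cd14, Tlr2, Tlr4, Ly96, Myd88 and Tlr13 that came from each cell class on days 0, 3, 7 and 14, as stacked bars with the number of UMIs of the gene above each. The fibroblast-like share of Tlr4 is 87.8%, 5.59%, 10.8% and 67.3% on the 4 days, while the monocyte/macrophage-like share of Cd14 is 85.2% on day 14.

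A further 37 genes of the pathway were measured, comprising other receptors, chaperones and accessory proteins, adaptors, kinases and ubiquitin ligases, transcription factors and inhibitors. Of 33 compared in monocyte/macrophage-like cells on day 14 against day 3, 3 were called higher and 3 lower, beside 5.95% and 9.45% of all compared genes, with a median log2 ratio of -0.30. The higher ones were listed as inhibitors of the pathway, but the other listed inhibitors, Irak3, Tollip and Sigirr, were not among the called genes. The immediate-early and stress list was higher on the same days in this class and in dendritic-like cells, where its part in these changes was not tested either. Tnfaip3, which encodes the ubiquitin-editing enzyme A20, went from 53.9 to 336 CPM, a ratio of 6.23 (5.33 to 7.29). Nfkbia, which encodes the inhibitor of NF-κB and is itself an NF-κB target, went from 440 to 2332 CPM, a ratio of 5.30 (5.01 to 5.60). Pik3ap1, an adaptor for phosphoinositide 3-kinase, had a ratio of 2.80 (1.83 to 4.27). The lower ones were the scavenger receptor Cd36 at 0.298 (0.225 to 0.388), the flagellin receptor Tlr5 at 0.352 (0.110 to 0.879) and Tirap, the adaptor that bridges Tlr2 and Tlr4 to MyD88, at 0.427 (0.220 to 0.763).

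By day 7 the same class had 35 of these genes compared, with 2 higher (Tnfaip3 at 2.62 and Nfkbia at 2.55) and 1 lower (Cd36 at 0.176), beside 6.09% and 4.23% of all compared genes. In dendritic-like cells 2 of 33 were higher and 2 lower on day 7, and 3 of 32 were higher and 4 lower on day 14. Over all compared genes the higher and lower shares were 4.19% and 3.39% on day 7 and 8.06% and 11.3% on day 14. Nfkbia was among the higher ones on both days, at 2.12 (1.98 to 2.26) and 3.88 (3.49 to 4.30), and Tnfaip3 on day 14 at 4.16 (3.06 to 5.60), joined by the double-stranded RNA receptor Tlr3 at 4.75 (2.38 to 9.20) on 16 against 26 UMIs. The lower ones whose intervals lay below 1 were Cd36 at 0.201 and Tab1, a subunit of the TAK1 kinase complex, at 0.408 on day 7, and the kinase Irak4 at 0.404 and the inhibitor Tollip at 0.161 on day 14. In neutrophil-like cells 1 of 24 was lower, Tollip at 0.376 (0.152 to 0.815), and 0 were higher, beside 6.04% and 6.81% of all compared genes.

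In fibroblast-like cells the pathway genes that passed the fold were all higher after injury, 5 of 26 on day 3, 4 of 26 on day 7 and 1 of 27 on day 14. Over all compared genes 10.4%, 10.8% and 9.06% were higher and 10.7%, 8.13% and 4.67% lower on these days. Irf7, a transcription factor of the interferon response, had a ratio to day 0 of 4.73 (3.10 to 7.52) on day 3 and 3.45 (2.25 to 5.51) on day 7. Nfkbia had 2.74 (2.44 to 3.09) and 2.22 (1.97 to 2.51), and Tnfaip3 2.24 (1.5 to 3.44) and 3.02 (2.05 to 4.58) on the same days. The endosomal receptor chaperone Unc93b1 at 2.22 (1.48 to 3.44) and the lipopolysaccharide-binding protein Lbp at 2.01 (1.64 to 2.48) completed day 3, and the adaptor-binding ligase Traf3 at 2.29 (1.48 to 3.66) completed day 7. The single gene of day 14, Irf5, had an interval that spans 1. These pathway ratios were not recomputed without the sub-cluster that held 69.8% of the fibroblast-like UMIs on day 3.

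In single cells thinned to 1000 UMIs, 51.9% (45.4 to 58.4) of monocyte/macrophage-like cells with a Tlr2 UMI also had one of Cd14, 124 of 239, against 37.3% (34.6 to 40.2) of cells without a Tlr2 UMI. For Tlr4 the corresponding shares of Cd14 were 47.2% and 39.5% in monocyte/macrophage-like cells and 54.7% and 47.5% in neutrophil-like cells. These shares pool the days. By day, the macrophage-like shares with and without a Tlr2 UMI were 39.0% and 34.1% on day 3, 51.0% and 37.2% on day 7, and 77.1% and 51.0% on day 14. In neutrophil-like cells the shares for Tlr2 were 34.5% (17.9 to 54.3) and 53.9% (46.6 to 61.1) on day 3 and 47.1% (23.0 to 72.2) and 43.3% (32.9 to 54.2) on day 7, with opposite directions and overlapping intervals. At this depth the counts are sparse, and these shares are given as descriptions.

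Across 23 class-days with at least 20 cells and 100000 UMIs, the genes most like a member in level were mostly genes of myeloid cells, for the 9 members with at least 100 UMIs, which leaves out Tlr9. By Pearson's r over log2(CPM + 10), given with no test because class-days share libraries and depth, Tlr7 was closest to Ms4a7 (0.991), Cd14 to Lst1 (0.977), Tlr13 to Gm49339 (0.980), Tlr8 to the macrophage receptor Trem2 (0.967) and Tlr2 to Cd14 (0.960). Tlr1 was closest to Ms4a6d (0.954), Tlr4 to Dmxl2 (0.944), Myd88 to the myeloid kinase Fgr (0.925) and Ly96 to the lysosomal protease Ctsb (0.883). Among the members themselves Cd14 and Tlr13 were at 0.95, whereas Tlr4 was at 0.28 with Tlr7 and 0.17 with Tlr1. The members thus formed no single pattern over the classes, with Tlr4, Tlr13 and Cd14 leaning to neutrophil-like cells and Tlr1, Tlr7 and Tlr8 to monocyte/macrophage-like cells.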

How the data were processed

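Per the file headers and the methods of the study, the authors deposited for each library a filtered matrix of UMI counts per gene and cell barcode, written by Cell Ranger 3.0.2 per the headers. The genome build of these counts is not given clearly in the sources used here, and no coordinate was taken from them. The deposited counts were used unnormalised. Barcodes with under 200 genes or over 20% mitochondrial UMIs were removed (453), as were the shallower copies of the 217 barcodes shared by libraries and the 106 barcodes (1.72%) with the top Scrublet doublet scores, removed at 0.8% per 1000 barcodes, since the caller's own threshold marked 15. Some barcodes met more than 1 of these criteria, and 5403 were kept.

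Cells were clustered with scanpy 1.11.5 (2000 variable genes without the members and 37 further pathway genes, 30 components, 15 neighbours, Leiden resolution 1) under Python 3.11.15, and the 43 clusters were named from at least 3 markers (at least 50 CPM, 10% of cells and 3 times the lower quartile over clusters). Levels are CPM of summed UMIs with exact Poisson intervals, shares have Clopper-Pearson intervals, and ratios have exact conditional intervals, computed with scipy 1.17.1. Class-days under 20 cells were not compared. The ratio calculation was tested on simulated data. All 10 members were named, and of the pathway list those past the fold with an interval off 1. Members and lists were chosen with earlier results of these data known. Alternatives covered the filters, resolution, clustering per library, doublets, fold and UMI minimum, averaging over cells, and sub-cluster. Keeping the shared barcodes was added after the data were seen.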

Additional observations from a re-analysis of the deposited data

Results flagged for a closer look

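The level of Cd14 on day 7 against day 3 went different ways in the myeloid classes. It was 1.35 times its day 3 level (1.29 to 1.41) in monocyte/macrophage-like cells and 1.14 times (1.04 to 1.25) in neutrophil-like cells, but 0.812 times (0.691 to 0.955) in dendritic-like cells. The dendritic-like value depends on the processing, from 0.687 to 1.62 over the alternatives, and without doublet removal it was 1.62, so that all 3 classes then lay above 1. The difference between the classes was not tested, since each day is 1 library, and none of the 3 ratios passed the fold used for calls.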

How the results depend on the processing

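No paired analysis was possible because each day is 1 library, and no library could be left out for the same reason. Of the 13 calls of members, 9 passed the fold under every alternative that gave a new ratio, among them all 8 in monocyte/macrophage-like and neutrophil-like cells (Cd14 on day 14 at 2.78 to 3.45, Tlr2 at 2.20 to 2.51, Tlr4 at 0.292 to 0.346). The other 4 were Tlr4 in fibroblast-like cells on day 3 (0.212 to 0.511) and, in dendritic-like cells, Tlr4 on day 7 (0.410 to 0.920) and Myd88 (0.437 to 0.674) and Ly96 (0.0840 to 0.905) on day 14. A minimum of 50 UMIs ends the call of Tlr9 in monocyte/macrophage-like cells on day 14, which rests on 20. No called value reversed its direction, but values short of the fold did, among them Ly96 and Tlr4 in fibroblast-like cells and Cd14 in dendritic-like cells. The cause of each move below was not tested, other than by construction of the setting.

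Counts of called members are given as the main count and then the alternative one, each day against the first day of its class. In dendritic-like cells, Leiden resolution 0.5 took the day 7 members called higher from 0 to 1 and the day 14 members called lower from 2 to 1, and a minimum of 50 UMIs took the latter from 2 to 1. A filter of 500 genes, and no doublet removal, each took day 14 higher from 1 to 2 and day 7 lower from 1 to 0. Keeping shared barcodes in both libraries took day 7 lower from 1 to 0 and day 14 lower from 2 to 1. Clustering each library on its own gave day 14 lower 1 for 2, day 14 higher 2 for 1 and day 7 lower 0 for 1 in dendritic-like cells, and in fibroblast-like cells day 7 higher 1 for 0, day 7 lower 1 for 0 and day 14 lower 2 for 0. A fold of 1.5 gave dendritic-like day 14 higher 3 for 1, monocyte/macrophage-like day 7 higher 1 for 0 and lower 3 for 1, and fibroblast-like day 3 higher 3 for 0, day 7 higher 1 and lower 1 for 0, and day 14 higher 2 and lower 1 for 0. The mean of each cell's CPM gave dendritic-like day 14 higher 2 for 1 and lower 1 for 2, monocyte/macrophage-like day 7 higher 1 for 0, and fibroblast-like higher 2 for 0 on day 3 and 3 for 0 on day 7. Leaving out the sub-cluster of highest UMI counts took fibroblast-like day 3 lower from 1 to 0 and higher from 0 to 1. The other 104 counts stayed within 1.5 times. Beyond the counts and ratios, 84 values of levels, counted over all settings, lay outside the main counting interval and 1436 did not, 19 shares of UMIs by class moved without doublet removal and 70 did not, and 56 shares of cells moved when thinned to 2000 UMIs and 194 did not. For the pathway list only averaging CPM over single cells was run, which moved the median log2 ratio in fibroblast-like cells from 0.13 to 0.40 on day 3 and from 0.05 to 0.48 on day 7 and left the other 6 medians close; its calls were not recomputed under other settings. Depth limits Tlr8 and Tlr9, and dendritic-like cells on day 14.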
